A study of Mus musculus with 6 samples.

Results

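The genes described here are 37 listed chaperone and stress response genes of the mouse, 21 that act in or report on the endoplasmic reticulum (ER) and 16 heat shock genes of the cytosol and mitochondria. They were taken by gene symbol from the annotation of the array platform. Of the 37, 36 had at least 1 named probe, 60 probes in all, and Hsp90ab1, a constitutive cytosolic Hsp90, had 0 named probes. Over the whole array 19057 genes had a named probe and 9718 were bright enough to be tested, 30 of them from this list. RNA came from the kidney cortex of 6 male C57BL6 mice of 12 weeks. In the captopril group 3 mice drank captopril, which blocks the enzyme that makes angiotensin II, at 10 mg/kg/day for 7 days. In the control group 3 mice carried no drug label, and what they drank is not stated. Each mouse was measured once, on an Illumina MouseWG-6 v2 bead array.

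Proteins that enter the ER fold with the help of the Hsp70 chaperone BiP (Hspa5), the Hsp90 paralogue Grp94 (Hsp90b1), the lectin chaperones calreticulin and calnexin, and protein disulphide isomerases. When unfolded proteins accumulate there, the sensors IRE1, PERK and ATF6 start the unfolded protein response: ATF6 and spliced XBP1 raise ER chaperone genes, and ATF4 raises genes of amino acid supply and Ddit3 (CHOP). In the cytosol the factor HSF1 raises Hsp70, Hsp90, their cochaperones and small heat shock proteins. Tubular cells of the kidney make and recycle large amounts of membrane and secreted protein. Activation of these sensors itself (Xbp1 splicing, ATF6 cleavage, phosphorylation) is not read by probes of this kind.

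Different short elements just upstream of the genes are known to serve the ER and the heat shock programme, and the stretches that hold them are shown first. RefSeq promoters (GRCm38.p6) were found for 30 of the 37 genes, and the 250 bases before each gene start were searched on both strands. The ER stress response element, CCAAT and CCACG with 9 bases between them, lay upstream of 7 of 18 ER members (38.9%), 0 of 12 heat shock members and 0.13% of 27018 genes. CCACG alone, which is part of that element, lay upstream of 13 of 18 ER members (72.2%), 7 of 12 heat shock members (58.3%) and 31% of all genes. In the stretches below the capitals are the 2 ends of that element, which reads CGTGG and then ATTGG where it lies on the other strand. The order of the stretches is that of the chromosomes.

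Hspa5: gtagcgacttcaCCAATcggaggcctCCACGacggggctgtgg
Calr: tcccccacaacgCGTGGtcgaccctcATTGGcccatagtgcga
Hsp90b1, first copy: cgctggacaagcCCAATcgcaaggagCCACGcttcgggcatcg
Hsp90b1, second copy: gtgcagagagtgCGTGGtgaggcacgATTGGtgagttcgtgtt
Canx: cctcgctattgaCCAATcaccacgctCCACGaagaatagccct
Pdia6: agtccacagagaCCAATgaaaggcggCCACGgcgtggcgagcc
Dnajc3: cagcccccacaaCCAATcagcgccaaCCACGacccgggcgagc
Creld2: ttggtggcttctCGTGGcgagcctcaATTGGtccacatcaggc

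These stretches are at chr2:34772013-34772055 on the plus strand for Hspa5, chr8:84847063-84847105 on the minus strand for Calr, and chr10:86705626-86705668 and chr10:86705521-86705563 on the minus strand for Hsp90b1. Canx is at chr11:50325788-50325830 on the minus strand, and Pdia6 at chr12:17266479-17266521, Dnajc3 at chr14:118937815-118937857 and Creld2 at chr15:88819508-88819550 on the plus strand. The elements lie within 212 to 47 bases upstream of the annotated starts. The list was drawn up from genes known to belong to this response, so the share describes the list and is not independent evidence. In the same windows TGACGTGG, a site bound by XBP1 and ATF6, was found in 0 of 18 ER members and 0 of 12 heat shock members, against 0.603% of all genes. Nothing follows about the factors from letters missing in a window of this length.

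The element of ATF4 targets was searched as TGATGNAA on either strand. It lay upstream of 3 of 18 ER members (16.7%), 0 of 12 heat shock members and 3.9% of all genes. The 3 were Chac1, a glutathione-degrading enzyme, Asns, asparagine synthetase, and Herpud1, a component of ER-associated degradation. Capitals mark the element.

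Chac1: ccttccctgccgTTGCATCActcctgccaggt
Asns: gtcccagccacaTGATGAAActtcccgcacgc
Herpud1: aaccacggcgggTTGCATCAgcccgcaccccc

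Chac1 is at chr2:119351037-119351068 on the plus strand, Asns at chr6:7693213-7693244 on the minus strand and Herpud1 at chr8:94386305-94386336 on the plus strand. The heat shock element is a run of GAA and TTC units that alternate with 2 bases between them. With 3 units it lay upstream of 2 of 12 heat shock members (16.7%), 0 of 18 ER members and 0.514% of all genes. With 2 units, a pattern contained in the first, it lay upstream of 7 of 12 heat shock members (58.3%), 1 of 18 ER members (5.56%) and 14.6% of all genes. The genes with 3 units were Hspd1 and Hspe1, the mitochondrial chaperonin Hsp60 and its lid Hsp10, which lie head to head on chromosome 1 and share this stretch. Capitals mark 1 set of 3 units as read from each gene.

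Hspd1: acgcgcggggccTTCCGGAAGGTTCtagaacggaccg
Hspe1: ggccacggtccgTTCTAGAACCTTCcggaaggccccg

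The Hspd1 stretch is at chr1:55088052-55088088 on the minus strand and the Hspe1 stretch at chr1:55088047-55088083 on the plus strand.

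In captopril cortex 0 of the 30 tested members were called against control cortex. This was judged by limma, with a threshold of 0.05 on p-values adjusted over all genes tested. Over all 9718 genes 0 were called (0%), and over all 16500 probes 3 were called (0.0182%), of which 0 belonged to a member. The 30 tested members held 17 higher and 13 lower values, with a median log2 difference (captopril minus control) of 0.049, against -0.0034 over all genes. The differences ran from -0.34 for Trib3 to 0.38 for Dnajb9, and 30 of 30 were under 0.5 in size, as were 9531 of all 9718 tested genes. On the normalized values the 95% interval of every tested member lay within a 2-fold change in either direction. The bounds ran from 0.533-fold at the lowest (Trib3) to 1.85-fold at the highest (Chac1). Over all tested genes 96.9% had such an interval. The normalized values include a constant offset, which shrinks the differences of dim probes such as those of Trib3, Hyou1 and Chac1. For such probes the intervals do not limit the change in RNA to 2-fold. Scaling arrays to a common median moved the median of all genes to 0.075 and turned 7 members with small lower values to higher ones, for 24 higher and 6 lower.

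Between 36.2% and 38.2% of the probes were detected above background per array, and array pairs correlated at 0.984 to 0.987 across tested probes. Kidney markers were present: 11 of 12 proximal tubule markers and 5 of 5 distal markers were tested and detected on all 6 arrays. So were 6 of 8 markers of medulla and collecting duct, so detection does not tell cortex from medulla. Of skeletal muscle markers 0 of 5 were bright enough. Brown fat markers were uneven: 4 of 7 were tested, 0 of these were detected on all 6 arrays, and their level, centred on the 6 arrays, was 1.53, -0.98 and 1.19 in captopril arrays 1 to 3 and -1.20, -0.55 and 0.48 in control arrays 1 to 3. In whole cortex, fewer cells of a type and less RNA per cell cannot be told apart.

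**Figure D1:**
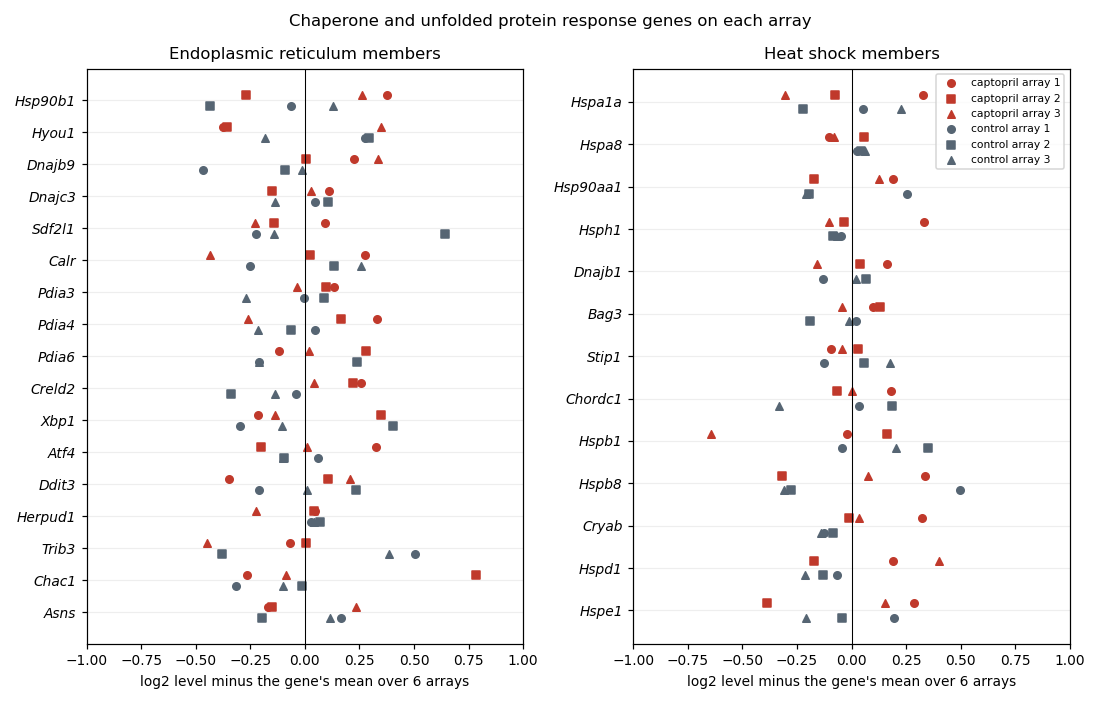
Log2 level of each tested member on each array minus its mean over the 6 arrays, ER members on the left and heat shock members on the right, with captopril arrays in red above control arrays in grey and a symbol for each array number. The groups lie apart for Dnajb9, Creld2 and Cryab and overlap for the other tested members.

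Among ER chaperones the smallest unadjusted p was that of Creld2, a disulphide isomerase-like protein of the ER lumen that is induced by ER stress. It was the only one of the 30 tested members with an unadjusted p under 0.05, in a background of 1.91% of genes so placed on the higher side and 1.78% on the lower. Its brighter probe, ILMN_2757368, read 8.84, 8.81 and 8.63 on the captopril arrays, against 8.55, 8.25 and 8.45 on the control arrays. Every captopril array lay above every control array. The means were 8.76 ± 0.12 in captopril and 8.41 ± 0.15 in control cortex (SD, n = 3 each), a log2 difference of 0.35 (SE 0.14, 95% interval 0.027 to 0.66) or 1.27-fold, with adjusted p = 0.998 in limma. The second probe, ILMN_2983948, read 8.47, 8.78 and 8.54 on the captopril arrays and 8.12, 8.25 and 8.33 on the control arrays. It too showed no overlap, and its difference was 0.36 (SE 0.14). In the authors' processed values both probes differed by 0.20.

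Dnajb9 encodes ERdj4, a cochaperone that delivers BiP to clients and to the sensor IRE1. Its detected probe read 8.02, 7.81 and 8.14 on the captopril arrays and 7.33, 7.71 and 7.78 on the control arrays. The lowest captopril array lay just above the highest control array. The means were 7.99 ± 0.17 in captopril and 7.61 ± 0.24 in control cortex (SD, n = 3 each), a difference of 0.38 (SE 0.17) or 1.30-fold with an adjusted p of 0.998 in limma. In the authors' values the difference was 0.16. With Cryab below, these were the 3 tested members whose groups did not overlap, all higher in captopril cortex. Over all genes 3.98% lay apart on the higher side and 4.74% on the lower, and 0 tested members lay apart on the lower side.

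Hsp90b1, the ER form of Hsp90, varied more between arrays of a group than between groups. Its levels were 10.70, 10.05 and 10.58 on the captopril arrays and 10.26, 9.89 and 10.45 on the control arrays. Captopril arrays 1 and 3 were highest and array 2 of each group lowest, so the groups overlapped. The difference was 0.24 (SE 0.21, 95% interval -0.25 to 0.74, adjusted p = 0.998 in limma). It stayed positive with any 1 array left out, at 0.088 to 0.44. Blocking arrays by number gave it an SE of 0.13, with adjusted p = 0.994 in limma. Brown fat marker level was highest on captopril arrays 1 and 3 and next on control array 3, and its part in the Hsp90b1 values was not tested.

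The disulphide isomerases had small positive values at the probes that represent them. Pdia3 (ERp57), which works with the lectin chaperones on glycoproteins, read 12.04, 12.00 and 11.87 on the captopril arrays and 11.90, 11.99 and 11.63 on the control arrays, a difference of 0.13 (SE 0.14). The ranges overlapped. Pdia4 (ERp72) differed by 0.16 (SE 0.18) and Pdia6 by 0.12 (SE 0.18). The other Pdia6 probe, about as bright, gave -0.0019 (SE 0.15). Both Pdia6 probes were dim, with group means of 5.58 to 5.71. With 1 array left out the lowest values were 0.022 for Pdia3 (without control array 3), 0.028 for Pdia4 (without captopril array 1) and 0.013 for Pdia6 (without captopril array 2). The remaining chaperones had values below 0. Calreticulin (Calr), the calcium-binding lectin chaperone, read 9.55, 9.30 and 8.84 on the captopril arrays and 9.03, 9.41 and 9.54 on the control arrays, a difference of -0.092 (SE 0.21). Captopril array 3 was its lowest array and captopril array 1 its highest. Dnajc3 (p58IPK), a BiP cochaperone, differed by -0.0092 (SE 0.14). Sdf2l1, another partner of BiP, differed by -0.18 (SE 0.23) and was set by control array 2, at 7.47 beside 6.60 to 6.93 on the other 5 arrays. Without that array its difference was 0.089. Hyou1 (Grp170), a nucleotide exchange factor of BiP, was detected on 1 captopril array and all 3 control arrays, so its difference of -0.26 (SE 0.23) lies at the detection limit.

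For 3 ER chaperones the array gave no usable level. The single Hspa5 probe was above background on 2 captopril arrays and 0 control arrays, at intensities of 160, 128 and 124 in captopril and 140, 117 and 125 in control cortex, where the array medians ran from 111 to 147. Nothing about BiP can be read from that probe. The single probes of Canx and Manf, a secreted ER stress protein, were above background on 0 of 6 arrays. Of the 7 genes with an ER stress response element, Hspa5 and Canx were thus not tested. The other 5 differed by 0.35 (Creld2), 0.24 (Hsp90b1), 0.12 (Pdia6, with -0.0019 at its other probe), -0.0092 (Dnajc3) and -0.092 (Calr).

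**Figure D2:**
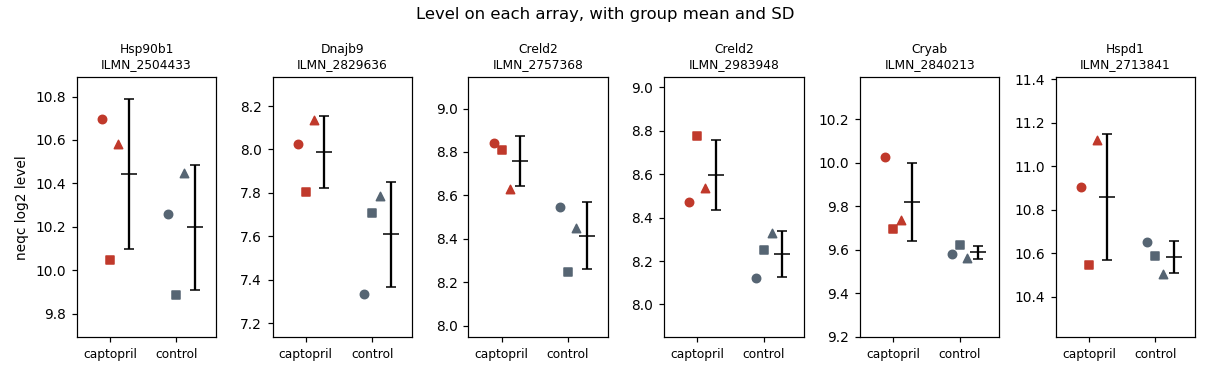
Log2 level on each array (vertical axis) for probes of Hsp90b1, Dnajb9, Creld2, Cryab and Hspd1, captopril in red left of control in grey, a circle, square and triangle for arrays 1, 2 and 3, and the mean and SD of 3 arrays as bars. Both Creld2 probes, Dnajb9 and Cryab show no overlap. For Hsp90b1 and the brighter Hspd1 probe, captopril arrays 1 and 3 are the highest and captopril array 2 lies inside the control range.

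The regulators of the response showed no difference larger than the spread between arrays of a group. Xbp1, whose spliced form drives ER chaperone genes, was bright, at 11.60, 12.16 and 11.68 on the captopril arrays and 11.52, 12.21 and 11.71 on the control arrays. Array 2 of each group was the highest. The means were 11.81 ± 0.31 in captopril and 11.81 ± 0.36 in control cortex (SD, n = 3 each), a difference of -0.00058 (SE 0.22, 95% interval -0.51 to 0.51). Atf4, the translationally controlled factor of the PERK branch, differed by 0.090 (SE 0.16) at its brighter probe and 0.11 at the other. Ddit3, the transcription factor CHOP of late ER stress, read 7.85, 8.30 and 8.40 on the captopril arrays and 7.98, 8.43 and 8.20 on the control arrays, a difference of -0.023 (SE 0.19). Its dimmer probe gave 0.089. Both Atf6 probes were below background on all 6 arrays, so this sensor was not tested.

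Target genes of the response and of ATF4 were likewise mixed. Herpud1 was the brightest of them, at 12.94, 12.93 and 12.66 on the captopril arrays and 12.92, 12.96 and 12.93 on the control arrays. Only captopril array 3 stood below the others, and the difference was -0.090 (SE 0.13), with 0.026 at the second probe. Chac1 read 5.58, 6.63 and 5.76 on the captopril arrays and 5.53, 5.83 and 5.74 on the control arrays. Its difference of 0.29 (SE 0.26) came from captopril array 2, without which it was -0.032. Asns differed by -0.059 (SE 0.17) at its brighter probe and -0.18 at the other, which was detected on 1 captopril and 2 control arrays. Trib3, a pseudokinase induced by ATF4 and CHOP, was detected on 2 arrays of each group and had a difference of -0.34 (SE 0.25) at the detection limit, or -0.044 in the authors' values. Chac1 and Asns hold the ATF4-type element shown above, as does Herpud1, and the 3 differences had no common sign.

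Cytosolic Hsp70 and Hsp90 genes differed little. At its brightest probe Hspa8, the constitutive Hsc70, was the steadiest of the tested members, with a within-group SD of 0.062. Its brightest probe read 13.25, 13.41 and 13.27 on the captopril arrays and 13.38, 13.39 and 13.42 on the control arrays, a difference of -0.086 (SE 0.12, 95% interval -0.36 to 0.19). Its other probes gave 0.0094 and 0.25, each with a wider spread. Their SDs were 0.33 and 0.50 in captopril and 0.42 and 0.26 in control cortex, so the steadiness holds for the brightest probe only. Hspa1a, the inducible Hsp70, was measured by 1 of its 3 probes, at 8.06, 7.66 and 7.43 on the captopril arrays and 7.79, 7.51 and 7.97 on the control arrays. The groups overlapped widely and the difference was -0.037 (SE 0.20). Both Hspa1b probes were untested. Hspa1a and Hspa1b are near-identical copies, and whether the Hspa1a probe tells them apart was not checked. Hsp90aa1, the inducible cytosolic Hsp90, differed by 0.098 (SE 0.18) on 1 of its 3 probes. Hsph1, the Hsp110 exchange factor, read 9.98, 9.62 and 9.55 on the captopril arrays and 9.60, 9.57 and 9.59 on the control arrays. Its difference of 0.13 (SE 0.15) rested on captopril array 1, and was -0.0039 without it.

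Cochaperones were close to level between the groups. Dnajb1, the Hsp40 that is induced with Hsp70, differed by 0.031 (SE 0.14), and Bag3, which links Hsp70 to small heat shock proteins and autophagy, by 0.12 (SE 0.13). Bag3 read 10.75, 10.78 and 10.61 on the captopril arrays and 10.67, 10.46 and 10.64 on the control arrays, so captopril array 3 lay inside the control range. Stip1 (Hop), which bridges Hsp70 and Hsp90, differed by -0.071 (SE 0.13), and Chordc1, an Hsp90 partner, by 0.075 (SE 0.17). Both Dnaja1 probes were too dim to be tested.

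Small heat shock proteins hold unfolding clients without using ATP. Cryab, alpha B-crystallin, read 10.03, 9.69 and 9.74 on the captopril arrays and 9.58, 9.62 and 9.56 on the control arrays. Every captopril array lay above every control array, with captopril array 1 farthest out. The means were 9.82 ± 0.18 in captopril and 9.59 ± 0.029 in control cortex (SD, n = 3 each), a difference of 0.23 (SE 0.14) or 1.17-fold with adjusted p = 0.998 in limma, and 0.13 without captopril array 1. Cryab is abundant in the renal medulla, and the markers of medulla and collecting duct, 6 of 8 tested, differed by -0.14 to 0.26 with 2 higher and 4 lower; the part of medullary tissue in the Cryab values was not tested. Hspb1 (Hsp25 in mice) read 6.52, 6.70 and 5.89 on the captopril arrays and 6.49, 6.89 and 6.74 on the control arrays. Captopril array 3 was lowest, and the difference of -0.34 (SE 0.22) was -0.099 without it. The Hspb8 probes gave 0.062 (SE 0.25) and -0.26 (SE 0.25), the second detected on 1 captopril and 2 control arrays.

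The chaperonins of the mitochondrial matrix, which share a promoter region, had unequal values, a contrast that was not itself tested. The brighter Hspd1 probe read 10.91, 10.54 and 11.12 on the captopril arrays and 10.65, 10.59 and 10.50 on the control arrays. At this probe captopril arrays 1 and 3 stood above all others and captopril array 2 lay inside the control range. Its difference was 0.28 (SE 0.17, 95% interval -0.11 to 0.66, adjusted p = 0.998 in limma). With any 1 array left out that difference was 0.14 to 0.43. The second probe gave 0.20 (SE 0.29) with another order of arrays. Its levels were 10.12, 9.34 and 8.99 on the captopril arrays and 9.49, 9.45 and 8.91 on the control arrays. Hspe1 read 8.27, 7.59 and 8.13 on the captopril arrays and 8.18, 7.94 and 7.77 on the control arrays, a difference of 0.037 (SE 0.20). Captopril array 2 was its lowest array. Of the 3 arrays with the highest brown fat marker level, captopril arrays 1 and 3 were highest at the brighter Hspd1 probe and control array 3 was lowest. At the second probe captopril array 1 was highest, control array 3 lowest and captopril array 3 next to lowest. The part of that tissue in the Hspd1 values was not tested.

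**Figure D3:**
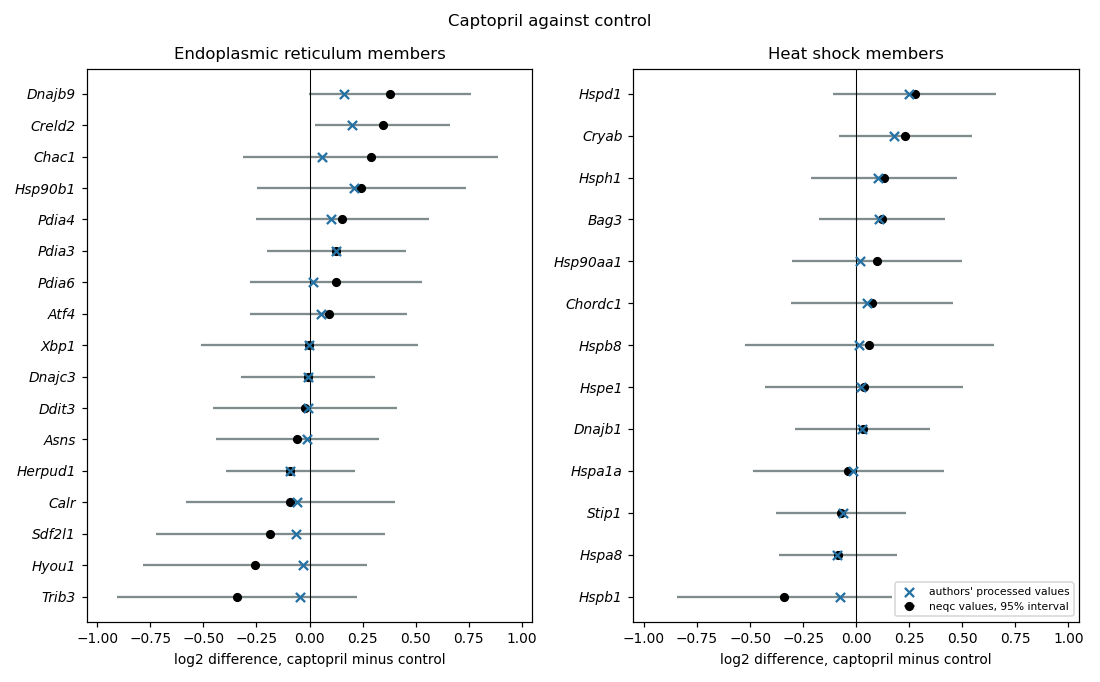
Log2 difference, captopril minus control, for each tested member with its 95% interval from limma (black points with grey bars), and the difference in the authors' processed values (blue crosses). The intervals include 0 for every gene but Creld2, and the authors' values lie nearer to 0 for dim genes such as Trib3, Hyou1 and Hspb1.

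Described as lists, the 17 tested ER members had a median difference of -0.00058, with 8 higher and 9 lower, and the 13 tested heat shock members 0.062, with 9 higher and 4 lower. Within the ER list the 10 tested chaperones and folding enzymes had a median of 0.12, the 3 regulators -0.00058 and the 4 targets -0.074. On each array the list level was taken as the median over its tested genes of the centred log2 level. For ER members it was 0.092, 0.021 and 0.011 on the captopril arrays and -0.040, 0.067 and -0.10 on the control arrays. For heat shock members it was 0.19, -0.035 and -0.042 on the captopril arrays and 0.020, -0.083 and -0.065 on the control arrays. The groups overlapped for both lists. Captopril array 1 was the highest of the 6 for 7 of 17 ER members and 5 of 13 heat shock members, and without it the heat shock median was -0.042. That array also had the highest median intensity before normalization, 147 against 111 to 142 on the others, and whether this bears on its list levels was not tested. The spread between arrays within groups had a median SD of 0.22 over the tested members and 0.19 over all genes.

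**Figure D4:**
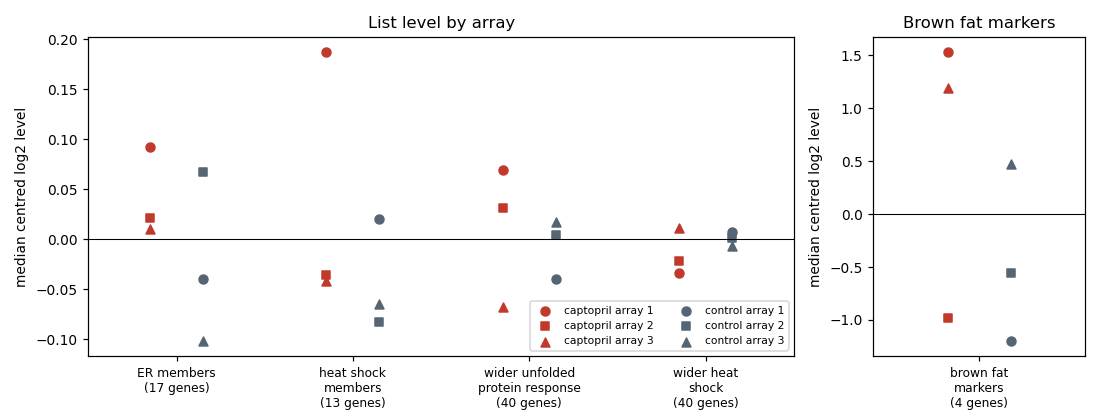
List level on each array, as the median over tested genes of the log2 level centred on 6 arrays, for the 2 groups of members, the 2 wider lists and, on its own scale at the right, brown fat markers, with captopril in red left of control in grey. Captopril and control arrays overlap in every list, and captopril array 1 stands highest for heat shock members.

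Wider lists of the same pathways held no called gene either. Of 60 further genes of the unfolded protein and integrated stress responses 40 were tested, 0 were called, 21 were higher and 19 lower, and the median was 0.0045. The smallest unadjusted p-values belonged to Tram1, of the ER translocation channel, at 0.30 (SE 0.13), and to Sel1l, the adaptor of the ER ubiquitin ligase, at 0.25 (SE 0.13). Next were Ppp1r15a (GADD34), which ends the block of translation, at -0.25 (SE 0.14), and the stress gene Ddit4 at 0.35 (SE 0.21). For the first 3 of these the groups did not overlap, and over the 40 tested genes 3 lay apart on the higher side and 2 on the lower. The shares over all genes were 3.98% on the higher side and 4.74% on the lower. Of 57 further heat shock and chaperone genes 40 were tested, 0 were called, 20 were higher and 20 lower, and the median was 0.0054. The smallest unadjusted p-values were those of Dnajb4, a heat-inducible Hsp40, at -0.63 (SE 0.21), detected on 1 captopril and 3 control arrays, and Cct8, a subunit of the cytosolic chaperonin, at 0.45 (SE 0.16). Pfdn1, of the prefoldin complex, stood at -0.33 (SE 0.14), detected on 2 captopril and 3 control arrays, and Hmox1, haem oxygenase, at 0.40 (SE 0.19). In the authors' values Dnajb4 stood at -0.084, Cct8 at 0.27, Pfdn1 at -0.041 and Hmox1 at 0.098. Of these 40 genes 2 lay apart on the higher side and 3 on the lower, again beside 3.98% and 4.74% over all genes. Adjusted p was 0.998 for each of these 8 genes in limma.

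Immediate early genes, which rise when tissue is handled, were tested for 4 of 8 listed, with differences of -0.083 to 0.26. Macrophage markers differed by 0.029 to 0.15 (3 of 5 tested). Plasma cell markers, from a cell type with a large ER, differed by -0.20 and -0.058 (2 of 5 tested). Podocyte markers differed by -0.48 to -0.075 (3 of 5 tested, all lower) and smooth muscle markers by -0.20 to 0.14 (4 of 5 tested). Red cell markers differed by 0.20 and 0.28 (2 of 3 tested). In these lists 0 genes were called.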

How the data were processed

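The members and gene lists were chosen with earlier results of these data known. Per the file headers, the deposited scanner table holds an average signal intensity per probe, unlogged, with a detection p-value beside it, for 45281 probes on each array. The authors' processed table holds log2-like values. Per the submitters' processing notes lumi was used, with settings not given in the sources used here. Every processed column ranks probes as the intensity of its array does (Spearman 1) and has a median of 7.94, so the direction is that of the intensity and genes are not centred. The exact transform stays unknown. These values served as an alternative.

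Intensities were corrected and normalized with neqc in limma 3.58.1 (R 4.3.3), in which the detection p-values stand in for negative controls and quantile normalization follows an offset of 16 and precedes log2. Probes with detection p under 0.05 on at least 3 of 6 arrays were tested by lmFit and eBayes, two-sided, with Benjamini-Hochberg adjustment over all tested probes or, for genes, over all tested genes. "Unadjusted" p-values come from the same fit. The fit was tested on simulated data. A gene was represented by its tested probe with the highest mean, and its other probes are given beside it. Of the probes 34885 had 1 symbol in GEO's platform annotation and 10396 had several (18 probes) or none and are unnamed here. Named in the text are all members and, from each wider list, up to 4 genes with the smallest unadjusted p. Levels of different probes are not comparable. An exact permutation of 3 against 3 arrays cannot go below p = 0.1. After normalization, same-numbered arrays did not deviate together over all tested probes (correlations of 0.0045, 0.0099 and 0.042). Before it, their median intensities ran alike in captopril and control: 147 and 142 for number 1, 119 and 111 for number 2, 138 and 129 for number 3. Shared processing of same-numbered arrays can therefore not be excluded. The main fit used no pairing, and the replicate block served as an alternative. The 3 arrays per group limit the precision of every value. Promoter motifs were counted in RefSeq sequence. Alternatives varied background correction, scaling, detection filter, eBayes options, replicate block, probe averaging and the arrays included, each changed on its own.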

Additional observations from a re-analysis of the deposited data

How the results depend on the processing

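The count of called members was 0 under each alternative run. The count of called probes over the whole array was 3, against 5 with trend and robust options of eBayes. With no detection filter it was 2, as it was with captopril array 1, 2 or 3 left out. It was 0 with the replicate block and 0 without captopril arrays 1 and 3. That last alternative was chosen after seeing the data. The number of members with an unadjusted p under 0.05 in limma was 1, against 4 without background correction, 3 in the authors' values and with trend and robust options, and 2 with no detection filter, with detection p under 0.01 on all arrays and with the mean of a gene's probes. It was 0 with median scaling and with the replicate block, and 0 to 2 with 1 array left out. The share of all genes under this cutoff was taken for the main fit only, at 1.91% higher and 1.78% lower. The counts under the alternatives thus have no background beside them. The adjusted p of members over all alternatives stayed at 0.826 or above in limma.

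With median scaling the median difference was 0.082 for ER members, 0.081 for the wider unfolded protein response list, 0.091 for the wider heat shock list and 0.15 for heat shock members, beside 0.075 for all genes. The sign turned for Dnajc3 (0.065), Xbp1 (0.082), Ddit3 (0.065), Asns (0.023), Hspa1a (0.053), Hspa8 (0.015) and Stip1 (0.017). The wider heat shock median was -0.032 with no detection filter, -0.022 with averaged probes and -0.037 without captopril arrays 1 and 3. Averaging probes turned Ddit3 (0.033), Hspa8 (0.058) and Hspb8 (-0.097, which includes a probe at the detection limit). The stricter detection filter turned Pdia6 (-0.0019), whose representing probe it removed. Without captopril arrays 1 and 3, Hsp90b1 stood at -0.15 and the brighter Hspd1 probe at -0.036. These arrays hold the highest values of both probes, so the lower difference follows from leaving them out. At the second Hspd1 probe captopril array 3 was at 8.99, below captopril array 2 at 9.34. With the same arrays left out, Creld2 stood at 0.40, Dnajb9 at 0.20 and Cryab at 0.11.

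With 1 array left out, medians ran from 0.0014 to 0.10 for ER members, from -0.042 to 0.14 for heat shock members and from -0.014 to 0.033 for the wider heat shock list. Differences that changed sign ran from -0.17 to 0.20 for Xbp1, -0.050 to 0.21 for Atf4, -0.13 to 0.15 for Ddit3, -0.19 to 0.011 for Asns and -0.082 to 0.064 for Dnajc3. They ran from -0.032 to 0.48 for Chac1, -0.25 to 0.10 for Calr, -0.34 to 0.089 for Sdf2l1, -0.21 to 0.11 for Hspa1a and -0.0039 to 0.21 for Hsph1. For Dnajb1 they ran from -0.042 to 0.12, for Hspb8 from -0.089 to 0.33, for Hspe1 from -0.096 to 0.24 and for Chordc1 from -0.072 to 0.19. Without a change of sign, Trib3 ran from -0.63 to -0.17 and Hyou1 from -0.50 to -0.13. The cause of these changes was not tested. Signal near background limits Hyou1, Trib3 and the 6 members with no tested probe.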
